A study of Mus musculus with 4 samples.

Results

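The 10 genes described here encode matrix metalloproteinases, the zinc-dependent proteases that cut collagen and other matrix proteins outside the cell. They were chosen by name, with earlier results of these data known. They are Mmp14, the gene targeted in the study, and Mmp2, Mmp3, Mmp9, Mmp11, Mmp12, Mmp13, Mmp16, Mmp19 and Mmp23. The array carried 16 probe sets annotated to exactly 1 of these 10 genes, out of 28898 such probe sets for 17097 genes. For each gene the description leads with the brightest probe set (by its mean over the 4 arrays).

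The samples were intact inguinal mammary glands taken at postnatal day 10 from 2 groups of littermates on an outbred Swiss Black background. Global knockouts, Mt1-mmp(-/-), carried the deletion in every cell of the animal, and they were compared with wild type, Mt1-mmp(+/+). Each group had 2 arrays, called biological replicates in the labels, which do not say whether animals were pooled, so p-values measure only the spread between these samples. The gland was not separated into cell types. In the wild-type arrays the adipocyte marker Adipoq read 13.1 and 13.1, the stromal marker Dcn 12.5 and 12.3 and the epithelial marker Krt18 8.36 and 7.27 on the log2 scale, all well above the array medians, which ran from 4.92 to 4.98.

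Metalloproteinases are made as inactive precursors, and their activity is set by removal of the propeptide and by inhibitors as well as by transcription. Mmp14, also called MT1-MMP, sits in the cell membrane, where it cuts fibrillar collagen and, with the inhibitor Timp2 as a bridge, converts the precursor of Mmp2 into the active gelatinase. In the mammary gland these enzymes are known for their part in remodelling the stroma around growing ducts. The arrays measured transcripts, not protein or protease activity.

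Promoter sequence of 6 of the 10 genes was matched in RefSeq (GRCm38.p6), and 5 stretches are shown, those that held any motif named below. Mmp14, the targeted gene, read lower in the knockout and Mmp11 read higher, and both held the same motif. Because Mmp14 was targeted, this pair does not show whether motif and direction go together, which was not tested. Each stretch is the 100 bases just before an annotated transcription start, read 5′ to 3′ on the gene's strand. Capitals mark GGGCGG (the GC box, bound by factors such as Sp1), TGANTCA (the AP-1 motif, bound by Fos and Jun dimers) and TATAAA (the TATA motif), each searched on both strands.
Mmp14: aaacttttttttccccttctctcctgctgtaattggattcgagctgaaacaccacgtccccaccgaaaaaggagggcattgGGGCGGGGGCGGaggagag
Mmp11: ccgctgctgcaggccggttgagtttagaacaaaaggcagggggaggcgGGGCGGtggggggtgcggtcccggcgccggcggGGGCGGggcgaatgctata
Mmp3: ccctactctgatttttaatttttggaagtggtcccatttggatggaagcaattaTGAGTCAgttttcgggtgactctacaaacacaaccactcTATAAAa
Mmp13: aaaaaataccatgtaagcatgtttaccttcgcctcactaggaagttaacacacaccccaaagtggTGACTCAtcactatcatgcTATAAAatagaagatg
Mmp12: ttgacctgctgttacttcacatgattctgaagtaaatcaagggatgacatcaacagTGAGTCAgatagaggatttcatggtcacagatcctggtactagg
These lie at chr14:54431498-54431597 on the plus strand for Mmp14, chr10:75932503-75932602 on the minus strand for Mmp11, and on the plus strand at chr9:7445722-7445821 for Mmp3, chr9:7272414-7272513 for Mmp13 and chr9:7347274-7347373 for Mmp12. Mmp14 held GGGCGG at 19 and 13 bases before the start, side by side without overlap, and Mmp11 held it at 52 and 19 bases. Neither had TGANTCA or TATAAA in the 250 bases before its start. Mmp3 held TGANTCA at 46 bases and TATAAA at 7 bases, and Mmp13 held them at 35 and 16 bases. Mmp12 held TGANTCA at 44 bases before the start shown, and none of the motifs before its other annotated start. Neither annotated start of Mmp23 had any of the motifs in that window. Among all 32851 promoter windows in the table, 32.7% held GGGCGG, 6.75% TGANTCA and 12.4% TATAAA in the same 250 bases. The matches describe these letters only, and binding was not measured.

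Mmp14, on chromosome 14, read far lower in both knockout arrays. By its brighter probe set it was at 5.83 and 5.68 in the knockout arrays, against 8.92 and 8.73 in the wild-type arrays (log2 values, as throughout). Its dimmer probe set read 4.32 and 4.31 in the knockout and 6.11 and 5.87 in wild type. The groups were far apart in both probe sets, and the knockout arrays lay close together. The brighter set differed by -3.07 ± 0.12 (SE, n = 2 per group). Relative to the wild-type mean it was 7.96-fold lower in knockout replicate 1 and 8.86-fold lower in knockout replicate 2. The dimmer set differed by -1.67, which is 3.18-fold, and its knockout values lay under the brightness limit of 4.94 used for testing, where RMA compresses differences. The sources used here do not place either probe set relative to the deletion, so these values check the genotype labels through loss of signal only.

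The genes were tested with limma over 11078 genes, those with a mean of 4.94 or more (the median over all probe sets). Mmp14 had the smallest p of all these genes and the eighth lowest difference, but its Benjamini-Hochberg adjusted p in limma was 0.0738 and did not pass 0.05. Over the alternatives run its adjusted p ranged from 0.00449 to 0.650. It passed with knockout replicate 1 left out (0.00449) or knockout replicate 2 left out (0.0216), fits in which the spread of the single knockout array is taken from wild type. An exact permutation test on 2 against 2 arrays cannot give a two-sided p below 0.333 for any gene.

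Of the 10 genes, 7 passed the brightness limit, and 3 (Mmp12, Mmp13 and Mmp19) did not and were not tested. Limma called 0 of the 7 at an adjusted p of 0.05, as it called 0.0% of all tested genes. At an unadjusted p under 0.05 limma had 3 higher (Mmp2, Mmp3 and Mmp11) and 3 lower (Mmp14, Mmp9 and Mmp23), while 21.8% of all tested genes were under it (9.69% higher and 12.1% lower). The groups did not overlap for 6 of the 7, against 58.8% of tested genes. These 7 are the genes bright enough to test, so the count does not speak for all 10. Over all 10 genes, 3 had both knockout arrays above both wild-type arrays, where 23.5% of all 17097 genes did. A further 4 had both knockout arrays below both wild-type arrays, where 26.6% did. Together that is 7 of 10, beside 50.1% of all genes. At least 2-fold higher without overlap were 2 genes, Mmp2 and Mmp11, against 0.807% of all genes. The gene at least 2-fold lower without overlap was Mmp14, against 1.39%. Mmp14 was the gene targeted, so its place in this count and in those above does not bear on the other genes. Because the 10 genes were chosen with earlier results of these data known, these shares describe the list and do not test it. The 8 other family genes with a single-gene probe set, described below, differed by -0.23 to 0.09. The median difference was 0.04 over the 7 tested genes and -0.04 over all 10, beside -0.02 over all tested genes.

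**Figure D1:**
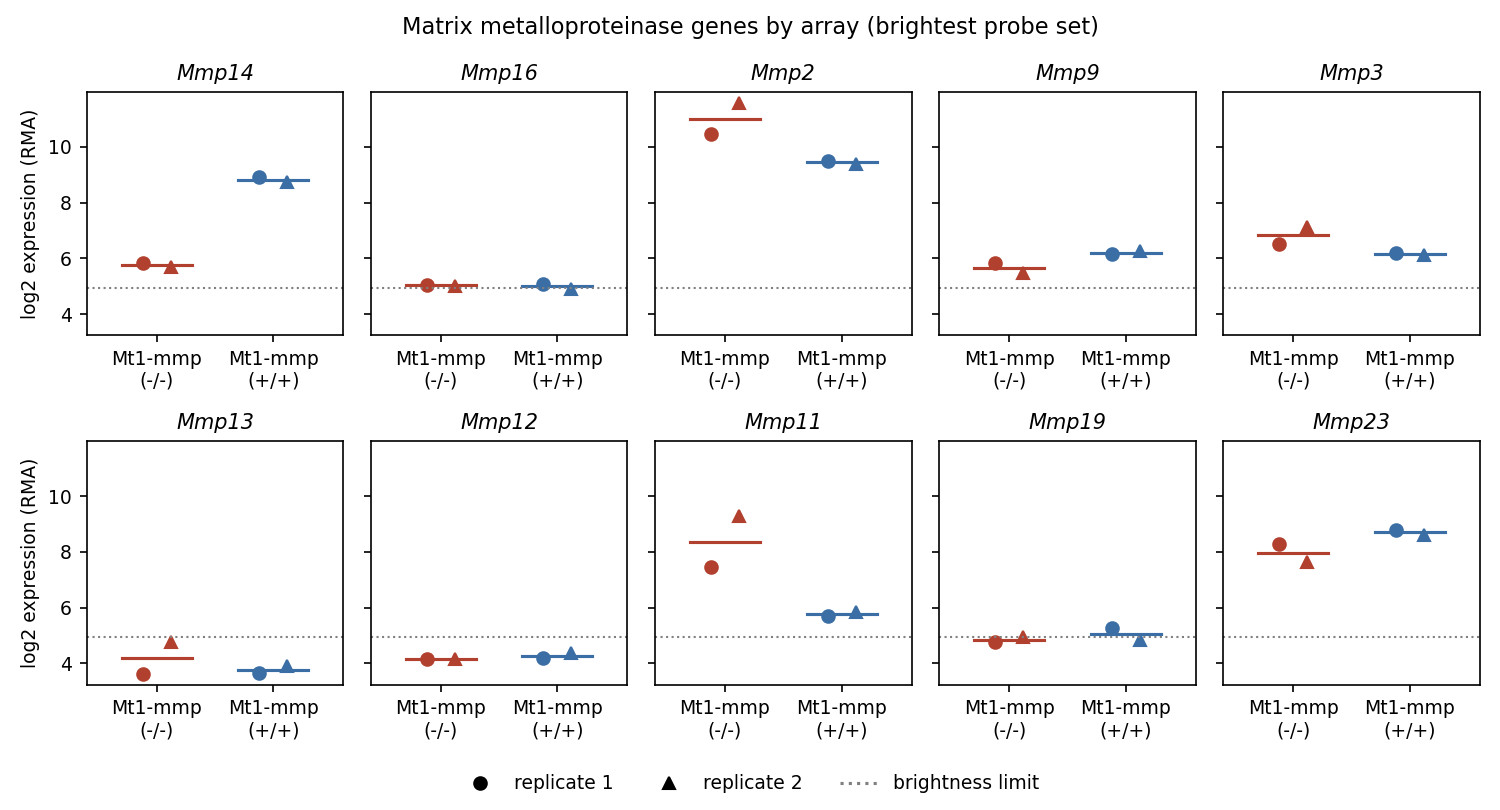
Log2 expression (RMA, vertical axis) of the brightest probe set of each gene in the knockout (left, red) and wild-type (right, blue) arrays, with circles for replicate 1, triangles for replicate 2, bars for the mean of 2 arrays and a dotted line at the brightness limit of 4.94. Mmp14 is lower in both knockout arrays, Mmp2 and Mmp11 are higher and spread apart there, and the means of Mmp12, Mmp13 and Mmp19 over the 4 arrays lie under the limit.

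Of the other membrane-bound enzymes, Mmp16 showed no separation between the groups and Mmp23 was lower in the knockout. Mmp16 (MT3-MMP), a transmembrane protease that can also activate the Mmp2 precursor, read 5.06 and 5.02 in the knockout and 5.08 and 4.92 in wild type. Its groups overlapped, its difference was 0.04 ± 0.11 (SE, n = 2 per group), and it lay barely above the brightness limit. The other probe sets of Mmp16, both under the limit, differed by 0.15, with overlap, and by 0.07, without. Mmp23, which is anchored by its N-terminal end and lacks the usual cysteine switch, read 8.28 and 7.62 in the knockout and 8.79 and 8.60 in wild type. Both knockout arrays were lower, at -0.41 in replicate 1 and -1.07 in replicate 2 relative to the wild-type mean, and the difference was -0.74 ± 0.26 (limma adjusted p = 0.226). A second Mmp23 probe set differed by -0.82, with 7.98 and 7.31 in the knockout and 8.57 and 8.36 in wild type. The Mmp23 difference ran from -1.07 to -0.41 when each array was left out in turn.

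Mmp11 had the highest positive difference among the 10 genes. Known as stromelysin 3, it is made mostly by stromal cells and, unlike most of the family, is activated inside the cell by furin. It read 7.46 and 9.27 in the knockout arrays and 5.71 and 5.82 in the wild-type arrays. Both knockout arrays were well above wild type but 1.80 apart from each other, while the wild-type arrays were 0.12 apart. Relative to the wild-type mean Mmp11 was 3.25-fold higher in the first knockout replicate and 11.3-fold higher in the second. The difference of 2.60 ± 0.65 (SE, n = 2 per group), or 6.07-fold, was the thirteenth highest of the 11078 tested genes, with a limma adjusted p of 0.163. The Mmp11 difference was 3.50 without knockout replicate 1 and 1.70 without knockout replicate 2. The gene has 1 probe set here, so no second one bears on it.

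The gelatinase genes stood on opposite sides of wild type. Mmp2, gelatinase A, which cuts denatured collagen and basement membrane collagen and whose precursor Mmp14 activates, read 10.4 and 11.6 in the knockout and 9.50 and 9.39 in wild type. Both knockout arrays exceeded both wild-type arrays, and they were 2.00-fold and 4.36-fold above the wild-type mean. The difference was 1.56 ± 0.41 (SE, n = 2 per group), which ranked 78 from the top among the tested genes, with a limma adjusted p of 0.172. The Mmp2 difference was 2.12 without knockout replicate 1 and 1.00 without knockout replicate 2. Mmp9, gelatinase B, known from neutrophils, macrophages and osteoclasts, read 5.84 and 5.49 in the knockout and 6.15 and 6.26 in wild type. Both knockout arrays were lower, with a difference of -0.55 ± 0.16 (limma adjusted p = 0.186). Its dimmer probe set differed by -0.25, with 4.84 and 4.97 in the knockout against 5.14 and 5.18 in wild type, again without overlap. The Mmp9 difference ran from -0.72 to -0.37 when each array was left out in turn.

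Stromelysin 1, Mmp3, was also higher in both knockout arrays. It cuts proteoglycans, laminin and fibronectin, activates other metalloproteinase precursors, and is known in the mammary gland for promoting side branching. It read 6.52 and 7.12 in the knockout and 6.20 and 6.13 in wild type. The knockout arrays were 1.28-fold and 1.94-fold above the wild-type mean, and the difference was 0.65 ± 0.23 (SE, n = 2 per group; limma adjusted p = 0.229). The Mmp3 difference ran from 0.35 to 0.96 when each array was left out in turn. Mmp3 lies in a row of neighbouring metalloproteinase genes on chromosome 9. Of the 9 such genes with a probe set, 2 (Mmp3 and Mmp7) were above the brightness limit. The other 8 genes of the row differed by -0.12 to 0.44.

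The collagenase gene Mmp13 and the macrophage elastase gene Mmp12 belong to that row and were both dim. Mmp13, the main interstitial collagenase of mice, read 3.63 and 4.78 in the knockout and 3.64 and 3.89 in wild type. Knockout replicate 2 alone stood above the others, and the groups overlapped. Mmp12 read 4.14 and 4.15 in the knockout and 4.19 and 4.35 in wild type, a difference of -0.12 without overlap but under the brightness limit. Mmp19, a secreted protease of basement membrane proteins with a mean just under the limit, read 4.75 and 4.93 in the knockout and 5.25 and 4.83 in wild type. Its groups overlapped, while its dimmer probe set, with 4.66 and 4.54 in the knockout against 5.07 and 4.91 in wild type, did not. With no brightness filter these 3 genes had limma adjusted p-values of 0.675 (Mmp13), 0.584 (Mmp12) and 0.654 (Mmp19).

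**Figure D2:**
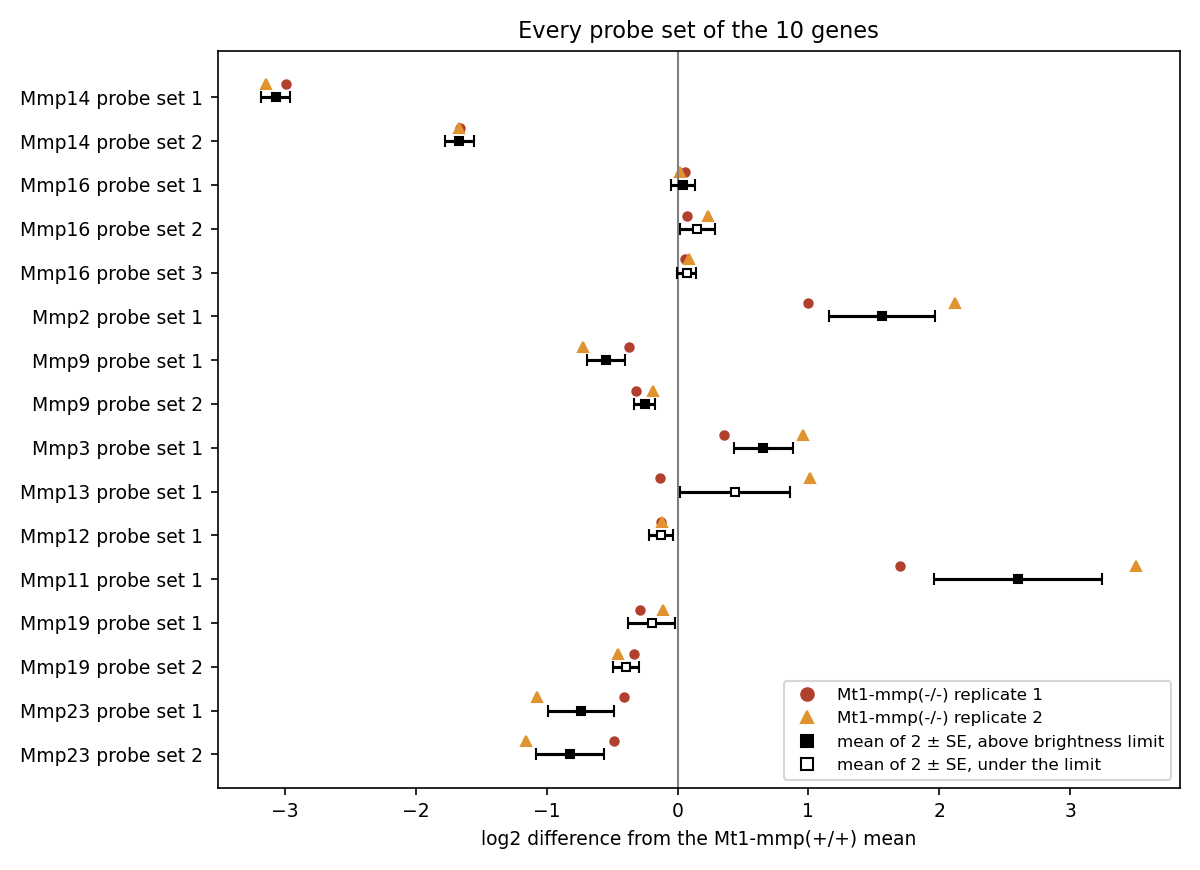
Log2 difference from the wild-type mean (horizontal axis) for all 16 probe sets, numbered within a gene from the brightest, with circles for knockout replicate 1, triangles for knockout replicate 2 and squares for the knockout mean with its SE from a limma fit over all 28898 probe sets. Open squares are probe sets under the brightness limit. Both Mmp14 sets lie far left, Mmp11 and Mmp2 far right with the replicates apart, and the Mmp23 and Mmp9 sets left of 0.

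The knockout replicates differed in the size of these values. Of the 6 tested metalloproteinase genes whose groups did not overlap, 6 lay farther from the wild-type mean in knockout replicate 2 than in replicate 1, as did 66.4% of all such genes. The median gap between the arrays of a group, over all tested genes, was 0.214 in the knockout and 0.0785 in wild type.

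Profiles over the 4 arrays were compared by the Euclidean distance between values centred on each gene's own mean, which with 4 arrays only describes the values. Nearest to Mmp14 among all tested genes were the ribonuclease gene Rnase2a (distance 0.259), the secretory pathway kinase gene Fam20c (0.496) and the membrane receptor gene Paqr9 (0.512). Rnase2a read 4.35 and 3.99 in the knockout against 7.50 and 7.39 in wild type. Whether any of these genes lies near Mmp14 on its chromosome was not examined. Among the tested metalloproteinases Mmp9 and Mmp23 were closest to each other (0.360), Mmp11 was closest to Mmp2 (1.16) and Mmp2 to Mmp3 (0.978). Mmp3 was closest to Mmp16 (0.767), Mmp16 to Mmp9 (0.655), and Mmp14 to Mmp23 at a distance of 2.36.

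The remaining family genes measured lay under the brightness limit or little above it and were nearly flat. Of 13 other family genes looked up, 8 had a single-gene probe set, and the values of their brightest sets ran from 3.81 to 5.41. Mmp17, Mmp7 and Mmp24 passed the brightness limit, with differences of -0.23 (Mmp17), -0.02 (Mmp7) and 0.00 (Mmp24), and limma called 0 of the 3, with 0 at an unadjusted p under 0.05. Over all 8 the differences ran from -0.23 to 0.09. Of the membrane-anchored enzymes among them, Mmp17 (MT4-MMP) read 4.97 and 4.99 in the knockout and 5.41 and 5.01 in wild type, and Mmp24 (MT5-MMP) read 5.21 and 5.23 in the knockout and 5.23 and 5.20 in wild type.

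Inhibitors set how much of the protease is active. Those tested were Timp1, Timp2, Timp3, Reck and Tfpi2, and none of the Timp genes was lower in both knockout arrays. Of 5 tested inhibitor genes 2 were higher in both knockout arrays (Timp2 and Timp3), 1 was lower in both (Tfpi2) and 2 overlapped, while 26.3% of all tested genes were higher and 32.5% lower without overlap. The median was 0.04 (0.09 in knockout replicate 1 and -0.06 in knockout replicate 2). Timp2, the bridge between Mmp14 and the Mmp2 precursor, read 11.0 and 11.6 in the knockout and 10.8 and 10.5 in wild type, a difference of 0.72 ± 0.26 (SE, n = 2 per group; limma adjusted p = 0.229). Its other 4 probe sets differed by 0.56, 0.68, 0.45 and 0.13, all higher in the mean. Timp3, which binds to the matrix, read 9.33 and 10.0 in the knockout and 9.27 and 9.20 in wild type (0.44 ± 0.26, limma adjusted p = 0.394). Its other 3 probe sets differed by 0.34, without overlap, and by 0.18 and 0.06, with overlap. Tfpi2, a Kunitz-type inhibitor of serine proteases, was lower, with 7.04 and 7.08 in the knockout against 7.95 and 7.88 in wild type (-0.86 ± 0.09, limma adjusted p = 0.102). Timp1, a weak inhibitor of Mmp14, overlapped between groups (-0.11 ± 0.18). At an adjusted p of 0.05 limma called 0 of the 5, and at an unadjusted p under 0.05 there was 1 higher (Timp2) and 1 lower (Tfpi2), beside 21.8% of all tested genes in either direction.

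Genes that activate metalloproteinases or hold them at the cell surface were mixed. Of 16 tested, 5 were higher in both knockout arrays, 5 lower in both and 6 overlapped, against 26.3% of tested genes higher and 32.5% lower without overlap, and the list's median was -0.05 (0.02 in knockout replicate 1 and -0.04 in knockout replicate 2). Limma called 0 of them at an adjusted p of 0.05, and at an unadjusted p under 0.05 it had 2 higher and 2 lower, beside 9.69% and 12.1% of tested genes. The tetraspanin gene Cd9 (0.79 ± 0.12, SE, n = 2 per group) and Lrp1 (0.88 ± 0.24), the endocytic receptor that clears Mmp2 and Mmp9, were higher. The proprotein convertase gene Pcsk6 (-0.45 ± 0.11) and the tetraspanin gene Cd151 (-0.46 ± 0.15) were lower. A second Lrp1 probe set, dimmer but above the brightness limit, differed by 1.52, and the other Cd151 probe sets differed by -0.60, -0.59 and -0.13. Their limma adjusted p-values ran from 0.115 for Cd9 to 0.215 for Cd151. Furin, the convertase that removes the propeptide of both Mmp14 and Mmp11, read 7.29 and 7.43 in the knockout and 7.42 and 7.34 in wild type (-0.02 ± 0.11).

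Transcripts of proteins that Mmp14 is known to cut lay mostly below wild type in the mean, and more so in knockout replicate 2. Of 13 tested substrate genes 12 had a negative difference and 1 a positive one. The negative ones included values near 0, such as Dll1 at -0.002. That value ranked 5893 from the lowest of all 11078 tested genes, so a negative difference was common among them. In both knockout arrays 5 were lower, against 32.5% of all tested genes, and 8 overlapped. The median difference was -0.25, beside -0.02 over all tested genes, and it was -0.04 in knockout replicate 1 and -0.35 in knockout replicate 2. Limma called 0 at an adjusted p of 0.05, and at an unadjusted p under 0.05 it had 0 higher and 3 lower, beside 9.69% and 12.1% of tested genes. The matrix and plasma glycoprotein genes Vtn (-0.56 ± 0.10, SE, n = 2 per group) and Fn1 (-0.37 ± 0.10), the crosslinking enzyme gene Tgm2 (-0.53 ± 0.18) and the membrane protease gene Adam9 (-0.55 ± 0.22) had the smallest p in the list, with limma adjusted p-values from 0.123 to 0.255. A second Tgm2 probe set overlapped between the groups, at -0.26. The fibrillar collagen gene Col1a1 read 11.6 and 11.6 in the knockout and 11.8 and 11.4 in wild type, which overlapped (-0.02 ± 0.15). Col3a1, of another fibrillar collagen, read 13.4 and 13.2 in the knockout and 13.4 and 13.4 in wild type (-0.12 ± 0.10).

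Transcription factors known to act at metalloproteinase promoters went both ways. Of 10 tested, 5 were higher in both knockout arrays, 3 lower in both and 2 overlapped, against 26.3% of tested genes higher and 32.5% lower. The median was 0.16, with -0.02 in knockout replicate 1 and 0.16 in knockout replicate 2. Sp1, a factor that binds GC boxes, was higher (0.47 ± 0.11, SE, n = 2 per group, limma adjusted p = 0.159). Its other probe sets differed by 0.44, without overlap, and by 0.14, with overlap. Binding of Sp1 to the stretches shown was not measured. The Ets family genes Ets2 (-0.32 ± 0.09) and Ets1 (-0.28 ± 0.10) and Jun (-0.38 ± 0.13), a partner at the AP-1 motif, were lower, with limma adjusted p-values from 0.180 to 0.229. Of the other AP-1 genes tested, Fos (0.38 ± 0.14, limma adjusted p = 0.243) and Fosl2 (0.18 ± 0.13, limma adjusted p = 0.466) were higher in both knockout arrays. Jund overlapped between the groups (0.004 ± 0.10, limma adjusted p = 0.987). Limma called 0 at an adjusted p of 0.05, and at an unadjusted p under 0.05 it had 1 higher and 3 lower, beside 9.69% and 12.1% of tested genes.

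**Figure D3:**
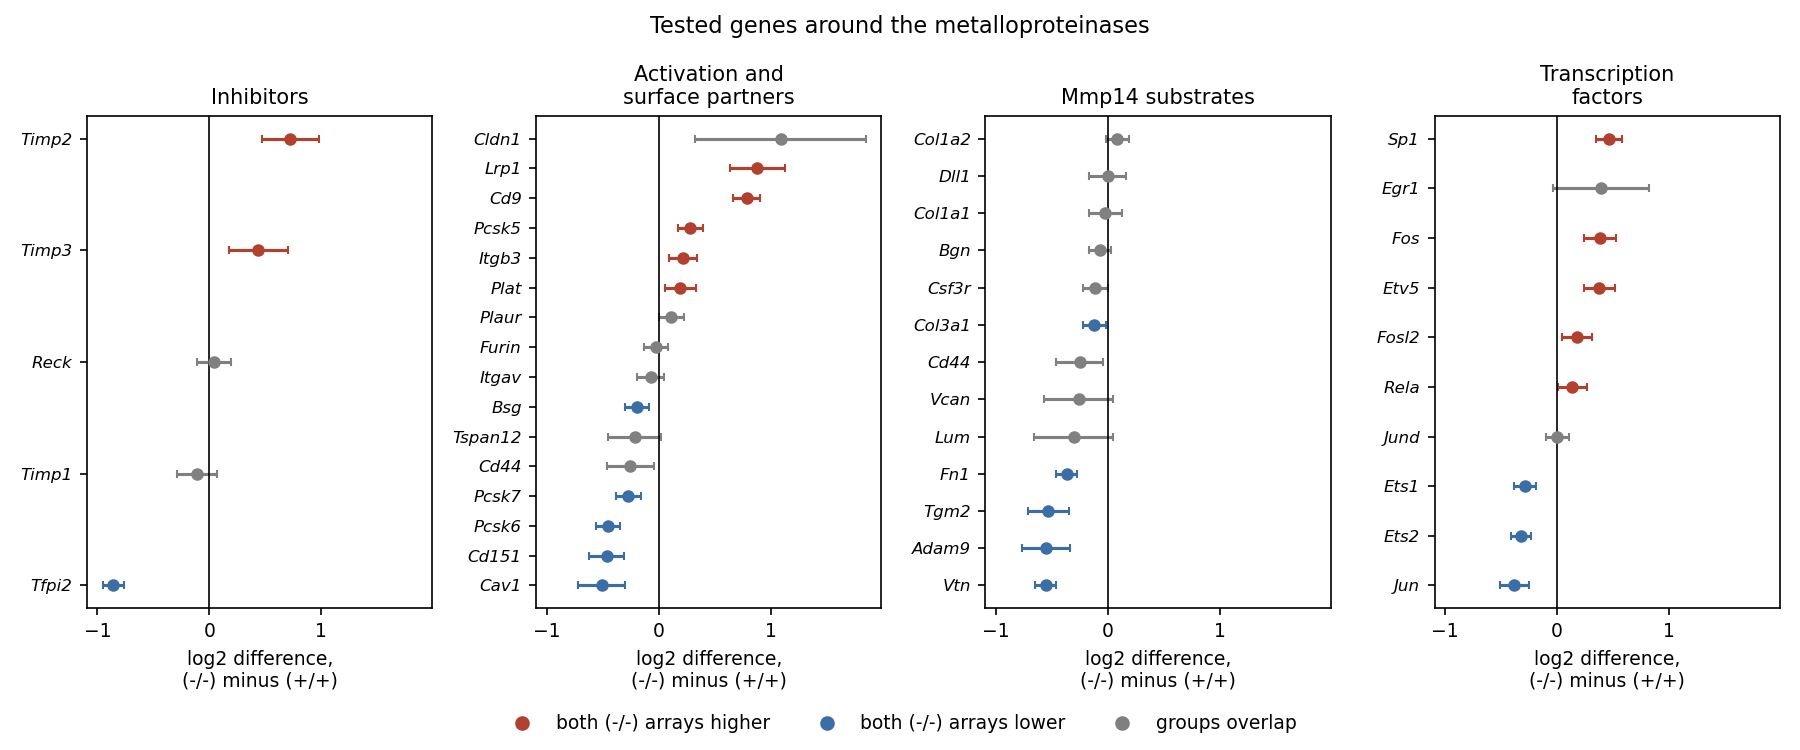
Log2 difference, knockout minus wild type, with limma's SE (horizontal axis) for the tested genes of 4 lists, in red where both knockout arrays were higher, blue where both were lower and grey where the groups overlapped. Timp2 and Timp3 lie to the right and Tfpi2 to the left among the inhibitors, and 12 of 13 substrate genes lie left of 0 (Dll1 almost on it).

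Markers of tissues around the gland differed between the arrays of a group; the counts here are of markers above the brightness limit, where 26.3% of all tested genes were higher and 32.5% lower without overlap. In whole tissue, fewer cells of a type and less RNA per cell cannot be told apart. Of 12 skeletal muscle markers 1 was higher in both knockout arrays, and the list's median stood at -0.74 and 5.95 in knockout replicates 1 and 2, against -0.96 and 0.96 in the wild-type arrays. The 1 higher marker, Myh4, read 4.21 and 12.4 in the knockout and 4.09 and 4.15 in wild type. Summed on the linear scale the muscle markers reached 361 and 47974 in the knockout arrays and 360 and 2953 in the wild-type arrays. Of 8 epidermis and hair follicle markers 1 was higher in both knockout arrays, with medians of 3.07 and -0.97 in the knockout and -0.45 and 0.45 in wild type, and linear sums of 11198 and 551 in the knockout against 860 and 2979 in wild type. Because the limit is on the mean of the 4 arrays, a marker can pass through 1 array alone, as Myh4 did. Lor of the epidermal list did so too, at 8.65 and 4.01 in the knockout and 3.91 and 4.11 in wild type. The medians and sums of both lists therefore lean toward such markers. Knockout replicate 1 had a muscle sum within the wild-type range and an epidermal sum above both wild-type arrays. In it Mmp11 exceeded its wild-type mean by 1.70 and Mmp2 by 1.00. Knockout replicate 2 had an epidermal sum below both wild-type arrays and a muscle sum above both. In it the excess was 3.50 for Mmp11 and 2.12 for Mmp2. The part of these tissues in the values of either knockout array was not tested.

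Markers of stromal and myeloid cells, which are known to make several of these enzymes, and of mast and luminal cells were set beside them, and their counts are to be read against the same 26.3% and 32.5% of tested genes. Of 11 stromal fibroblast markers 1 was higher and 6 were lower in both knockout arrays, with medians of -0.13 and -0.19 and linear sums of 30381 and 25651 in the knockout, against 33368 and 30763 in wild type, beside higher Mmp2, Mmp11 and Mmp3. Of 11 macrophage markers 1 was higher and 5 were lower in both knockout arrays, with medians of -0.56 and -0.09 and sums of 2839 and 3327 in the knockout against 3558 and 4144 in wild type, beside lower Mmp9. Of 8 neutrophil markers 1 was higher and 0 were lower in both knockout arrays, with medians of 0.79 and -0.23 and sums of 2225 and 1052 in the knockout against 1491 and 956 in wild type, while Mmp9 was lower in each knockout array. The higher marker was Lcn2, at 9.31 and 9.31 in the knockout and 9.27 and 8.28 in wild type. S100a8 read 9.09 and 6.38 in the knockout against 8.32 and 7.75 in wild type, and S100a9 read 9.39 and 6.62 against 8.07 and 7.92. These S100 genes were thus below both wild-type arrays in knockout replicate 2. Each of 7 mast cell markers read higher in the knockout arrays than in either wild-type array, with medians of 0.71 and 0.88 and sums of 3452 and 4078 in the knockout against 2140 and 1799 in wild type. Mcpt4 and Cma1 of the mast cell list lie on chromosome 14, as Mmp14 does. Among 7 luminal epithelial markers 4 had both knockout arrays above both wild-type arrays, with sums of 2209 and 1859 in the knockout against 1642 and 730 in wild type. The part of these cells in the metalloproteinase values was not tested.

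**Figure D4:**
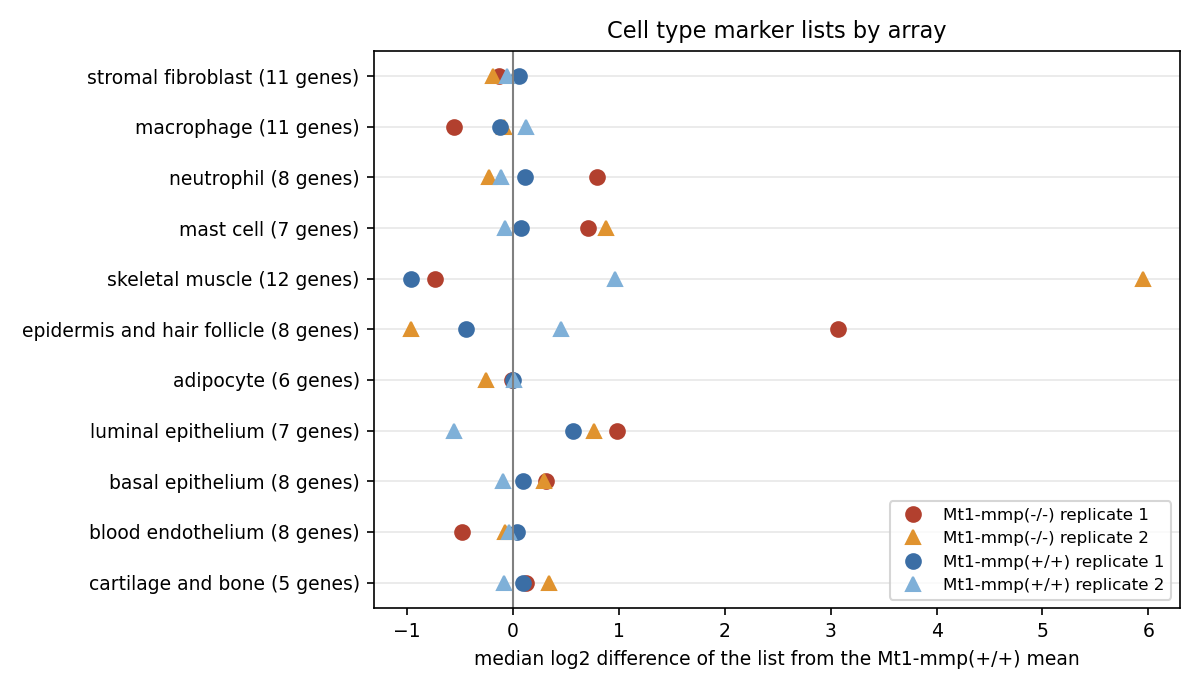
Median log2 difference of each marker list from the wild-type mean (horizontal axis), by array, with the number of genes above the brightness limit in each list. The muscle list reaches 5.95 in knockout replicate 2, the epidermal list 3.07 in knockout replicate 1, while the stromal fibroblast medians lie between -0.19 and 0.05.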

How the data were processed

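The authors deposited log2 values after RMA, run with affy in R per the submitters' processing notes, where no version is named. That the scale is log2 follows from their range of 3.16 to 13.7. Because RMA gives the arrays near-equal distributions, it would hide a shift shared by most genes. Labelling primed from the 3-prime end, per the labels' protocols. The labels and the table gave no scan date, so no batch could be examined. Detection calls were not used. Precision is limited by having 4 arrays.

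Probe sets with exactly 1 gene in the array annotation were named (28689 of 28898 matched a RefSeq gene table of GRCm38.p6), and the brightest per gene was used. Genes with a mean of at least 4.94 were tested in R 4.3.3 with limma 3.58.1 (lmFit, eBayes, no covariate, Benjamini-Hochberg adjustment over 11078 genes). The test was checked on simulated data with equal spread in both groups. The knockout arrays here lay farther apart than the wild-type arrays, a case that check does not cover. SE values are limma's moderated ones. The members, the gene and marker lists and the naming rule were chosen with earlier results of these data known. The rule named the 10 genes, other family genes above the brightness limit, up to 4 genes of smallest p per list and the genes nearest to Mmp14. Furin, Col1a1, Col3a1, Dll1, Fos, Fosl2, Jund and marker genes given by name fell outside it and were chosen after their values were seen. Alternatives were other brightness filters, probe set choices, scalings and eBayes priors, weighted arrays, a block for the replicate number, and leaving out each array in turn.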

Additional observations from a re-analysis of the deposited data

How the results depend on the processing

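Of 106 values of the 7 tested genes under an alternative, 96 kept their direction and stayed on the same side of the threshold, 9 passed it when 1 knockout array was left out, and 1 changed sign, namely Mmp16. With 1 array left out Mmp16 ranged from -0.043 (without wild-type replicate 2) to 0.12 (without wild-type replicate 1), and its highest value over all alternatives was 0.15, in another probe set. With 1 array left out the number of genes called ranged from 0 to 4180, and of the 10 genes from 0 to 6. Calls came without knockout replicate 1 (4180 genes, 6 of the 10) and without knockout replicate 2 (1299 genes, and of the 10 Mmp14, Mmp2 and Mmp11), where the spread comes from the wild-type pair alone, and limma called 0 in every other alternative run. The Mmp14 difference ranged from -3.17 to -2.97 with 1 array left out and was -2.37 as the mean of its probe sets. Same-numbered arrays did not deviate together (r = -0.0885 across genes, which are not independent replicates). Having only 1 difference between arrays per group, this check cannot tell whether the numbers pair the samples. With the replicate number as a block Mmp14 differed by -3.07 with a limma adjusted p of 0.207, and 0 genes were called. Dim probe sets limit what can be said of Mmp12, Mmp13, Mmp16 and Mmp19.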

Other observations

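Of the cartilage and bone markers, 2 genes of matrix-degrading cells are given here, singled out after their values were seen. Ctsk, which encodes cathepsin K, a cysteine protease that cuts collagen, read 8.79 and 9.18 in the knockout and 7.88 and 7.52 in wild type, a difference of 1.29 ± 0.21 (SE, n = 2 per group; limma adjusted p = 0.119). Acp5, which encodes tartrate-resistant acid phosphatase, read 9.23 and 7.96 in the knockout and 10.3 and 10.3 in wild type, a difference of -1.70 ± 0.46 (limma adjusted p = 0.176). The groups did not overlap for either gene, and they went opposite ways. Of the 5 markers of this list above the brightness limit 3 were higher and 1 was lower in both knockout arrays, against 26.3% and 32.5% of tested genes.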
